A study of Mus musculus with 13 samples.

Results

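Complement genes were followed in RNA-Seq data of myeloid cells sorted from the cortex and hippocampus of PS2APP mice with and without Trem2. The genes were chosen by name as the core of the complement system that brain myeloid cells can make or sense: the C1q chains C1qa, C1qb and C1qc, the components C3 and C4b, the receptors C3ar1 and C5ar1, and the alternative pathway genes Cfb and Cfp. All 9 were found, by their Ensembl identifiers, among the 52636 genes that the authors list for each mouse, and 8 of them were among the 17086 genes that passed the expression filter. Cfb did not pass.

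PS2APP mice carry human transgenes for mutant presenilin 2 and amyloid precursor protein and develop β-amyloid plaques. Both groups carry these transgenes, and they differ in Trem2, which encodes a lipid-binding receptor of myeloid cells. The 7 PS2APP;Trem2wt mice (5 females and 2 males, labelled PS2APP) have intact Trem2, and the 6 PS2APP;Trem2ko mice (5 females and 1 male, labelled PS2APP;Trem2KO) lack it in all cells through a null allele made on a related black-6 substrain. No mice without the transgenes were included, so the comparison is between genotypes within the amyloid model. Mice were 14 to 15 months old, and the sorted cells were positive for CD11b and CD45 and negative for Ly6g and Ccr2, a gate that takes brain-resident myeloid cells, mostly microglia with some border macrophages, and leaves out neutrophils and inflammatory monocytes.

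Each mouse is 1 library and 1 replicate. Total counts on genes were between 26120961 and 114857155 in PS2APP;Trem2wt mice and between 41567025 and 120569609 in PS2APP;Trem2ko mice. Trem2 itself was at 1044 ± 141 nRPKM (SD, n = 7) in PS2APP;Trem2wt mice and at 0.887 ± 0.734 nRPKM (SD, n = 6) in PS2APP;Trem2ko mice, in the direction of the labels in every mouse. The nRPKM is the authors' size-factor-adjusted number of reads per kilobase and per library size, a level per gene length, so nRPKM values can be compared between genes. The 10 microglia markers, among them Tmem119 and P2ry12, summed to between 14672 and 18213 nRPKM in every mouse. Of the 10, 1 was called lower in PS2APP;Trem2ko mice and 0 higher. It was Cx3cr1, at 1526 ± 144 nRPKM (SD, n = 7) in PS2APP;Trem2wt mice and 1088 ± 127 nRPKM (SD, n = 6) in PS2APP;Trem2ko mice (log2 fold change -0.49, edgeR adjusted p = 0.0067). The 10 monocyte and neutrophil markers summed to between 15.5 and 267 nRPKM in PS2APP;Trem2wt mice and to between 3.19 and 55.8 nRPKM in PS2APP;Trem2ko mice. Of these, Ly6g and Retnlg were at or near 0. Other neutrophil genes of the list were not: Ngp, S100a9, S100a8 and Camp reached 96.5, 62.7, 54.4 and 31.8 nRPKM in PS2APP;Trem2wt mice. In PS2APP;Trem2ko mice they reached 20.9, 9.66, 7.60 and 4.78 nRPKM. The medians of these genes were closer. They were 20.7, 12.8, 9.93 and 3.57 nRPKM in PS2APP;Trem2wt mice and 12.8, 7.54, 6.52 and 3.45 nRPKM in PS2APP;Trem2ko mice.

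Complement is a cascade of proteins that tags particles and cells for removal. In the classical pathway, C1q binds a target and its associated proteases cut C4 and C2. The products cut C3, whose large fragment is deposited on the target and whose small fragment, like that of C5, signals through receptors on myeloid cells. The alternative pathway uses factor B (Cfb) to amplify the deposition of C3 and properdin (Cfp) to stabilise the amplifying enzyme. In the brain, microglia are known as the main source of C1q, and C1q and C3 are known for their part in the removal of synapses by microglia.

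C1q is built from the products of C1qa, C1qb and C1qc, which lie side by side on the minus strand of chromosome 4 (GRCm38, GENCODE M21): C1qb at 136880129 to 136886187, C1qc at 136889804 to 136893065 and C1qa at 136895917 to 136898803. Each chain has a collagen-like stretch made of glycine-led triplets. Its coding sequence shows how the chains are alike and how they differ, and none of the 50-base words of these transcripts, the length of the reads, occurs in transcripts of another gene, so their reads can be told apart. The first 21 codons of the longest unbroken run of such triplets, read from the annotated transcripts, are given with the glycine codons in capitals.
C1qa: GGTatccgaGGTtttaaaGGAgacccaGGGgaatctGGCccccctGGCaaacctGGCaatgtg
C1qb: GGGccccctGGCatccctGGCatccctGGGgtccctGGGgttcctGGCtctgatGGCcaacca
C1qc: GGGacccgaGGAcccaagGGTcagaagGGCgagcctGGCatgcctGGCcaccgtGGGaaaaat
The run is 16 glycine codons long in C1qa (codons 62 to 109 of 245), 29 long in C1qb (codons 31 to 117 of 253) and 16 long in C1qc (codons 68 to 115 of 246). Over the aligned coding bases C1qa was 56.2% identical to C1qb and 55.3% identical to C1qc, and C1qb was 58.5% identical to C1qc.

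C3 and C4b are related to each other, and both proteins attach to their targets through an internal thioester. C4b also has a neighbouring copy, C4a, whose transcripts are 96.1% identical to those of C4b over 5367 aligned bases, and 34.6% of the 50-base words of C4b occur in C4a. The 60 bases around the thioester site show this, with its codons in capitals (C4a is annotated as a transcript without a coding frame and is shown at the matching site).
C3: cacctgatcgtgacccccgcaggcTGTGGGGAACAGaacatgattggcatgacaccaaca
C4b: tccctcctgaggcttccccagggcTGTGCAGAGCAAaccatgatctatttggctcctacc
C4a: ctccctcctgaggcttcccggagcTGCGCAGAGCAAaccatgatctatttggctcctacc
C4b lies on chromosome 17 at 34728380 to 34743882, and C3 at 57203970 to 57228136 on the same chromosome. Trem2 is on chromosome 17 too, 13.6 Mb from C4b, 13.48 Mb from Cfb and 8.85 Mb from C3. C2 also lies on this chromosome, at 34862604 to 34898265. For these genes, C57BL/6 substrain sequence that may flank the null allele cannot be told apart from the genotype.

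Mean levels of the members ran from 0.0554 to 6010.4 nRPKM, and none was called different between the genotypes. By mean nRPKM over the 13 mice, C1qb ranked 4, C1qc 7 and C1qa 11 among the 17086 genes tested, so the C1q transcripts are among the most abundant in these cells. C3ar1 ranked 240 and C5ar1 372, while C4b (4036), C3 (8770) and Cfp (9995) were far lower. In every one of the 13 mice C1qb was above C1qc, C1qc above C1qa, C1qa above C3ar1, C3ar1 above C5ar1, C5ar1 above C4b, and all other members above Cfb. C4b was above C3 in 12 of 13 mice. C3 was above Cfp in 7 of 7 PS2APP;Trem2wt mice and in 3 of 6 PS2APP;Trem2ko mice, so this last order does not hold beyond the spread between mice.

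**Figure D1:**
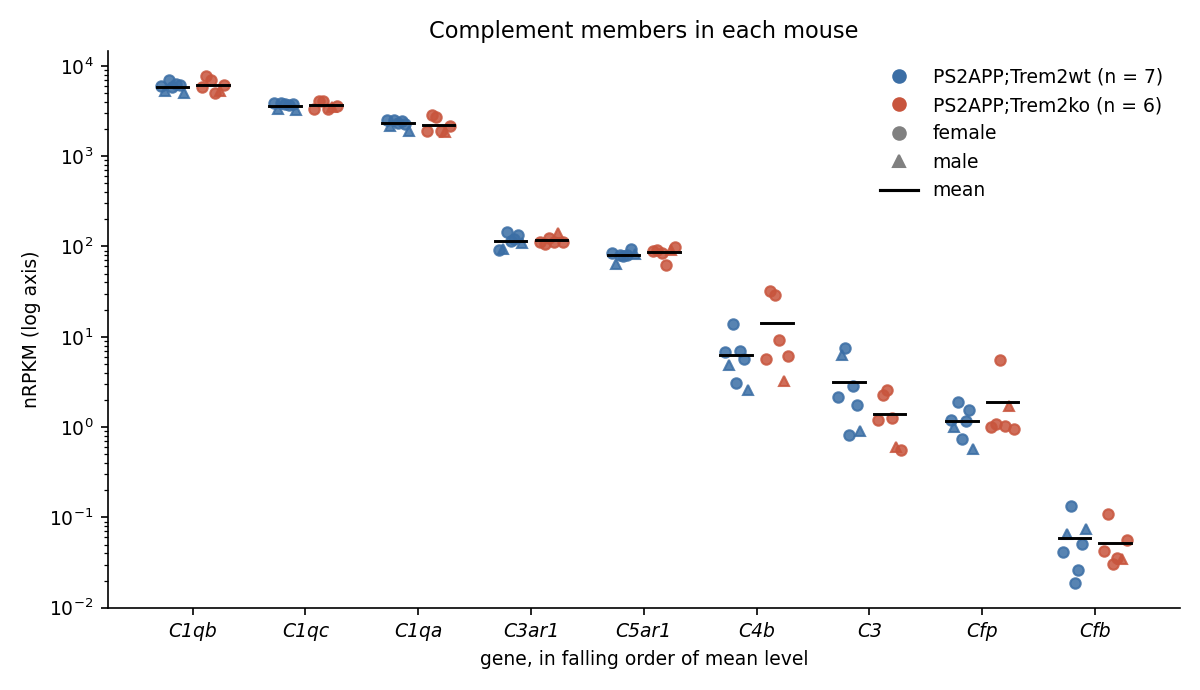
nRPKM (vertical log axis) of the 9 complement members in each mouse, PS2APP;Trem2wt in blue and PS2APP;Trem2ko in red, circles for females, triangles for males and black bars for group means. The C1q chains sit between 1873 and 7700 nRPKM and the receptors near 100, and C4b, C3 and Cfp spread more widely than these between mice of the same genotype.

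C1qa, which encodes the A chain, was at 2519, 2175, 2487, 2302, 2474, 2295 and 1896 nRPKM in PS2APP;Trem2wt mice 1 to 7. In PS2APP;Trem2ko mice 1 to 6 it was at 1906, 2888, 2695, 1899, 1873 and 2174 nRPKM. Knockout mice 2 and 3 were above every PS2APP;Trem2wt mouse and knockout mouse 5 was below every one, so the groups overlapped. The log2 fold change, PS2APP;Trem2ko over PS2APP;Trem2wt, was -0.04 ± 0.11 (SE; 95% interval -0.28 to 0.19; edgeR quasi-likelihood test, Benjamini-Hochberg adjusted p = 0.901).

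C1qb, the B chain, was at 6015, 5224, 6918, 5825, 6239, 6095 and 4956 nRPKM in PS2APP;Trem2wt mice. The PS2APP;Trem2ko values were 5863, 7700, 6943, 5060, 5208 and 6087 nRPKM. The same knockout mice, 2 and 3, were the highest, and the others lay within the PS2APP;Trem2wt range. Its log2 fold change was 0.06 ± 0.10 (SE; 95% interval -0.16 to 0.27; edgeR adjusted p = 0.847).

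C1qc, the C chain, was at 3897, 3292, 3837, 3745, 3662, 3734 and 3206 nRPKM in PS2APP;Trem2wt mice. The 6 knockout mice gave 3346, 4108, 4034, 3297, 3480 and 3635 nRPKM. It varied least of the members, with an SD of 0.12 on the log2 CPM scale within genotypes, and mice 2 and 3 were again the highest of the knockouts. Between the genotypes its log2 fold change was 0.01 ± 0.07 (SE; 95% interval -0.14 to 0.16; edgeR adjusted p = 0.973), an interval that leaves out a change of more than 1.12-fold in either direction.

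Together the 3 genes took 1.85 ± 0.152% (SD, n = 7) of all counts in PS2APP;Trem2wt mice and 1.95 ± 0.287% (SD, n = 6) in PS2APP;Trem2ko mice. The chains kept the same order of abundance in every mouse. C1qb made up 49.8 ± 1.31% (SD, n = 7) of the summed C1q nRPKM in PS2APP;Trem2wt mice and 51.0 ± 1.46% (SD, n = 6) in PS2APP;Trem2ko mice (two-sided exact permutation test over 1716 groupings, p = 0.16, adjusted over the 3 chains 0.24). C1qc made up 30.7 ± 1.06% and 30.5 ± 1.81% (exact permutation p = 0.839). C1qa made up 19.5 ± 0.684% and 18.5 ± 1.03%, a difference of -1.002 percentage points that did not pass the test (exact permutation p = 0.0606, adjusted 0.182). When each mouse was left out, the unadjusted exact permutation p of this difference ran from 0.0278 (without knockout mouse 3) to 0.131 (without knockout mouse 1).

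**Figure D2:**
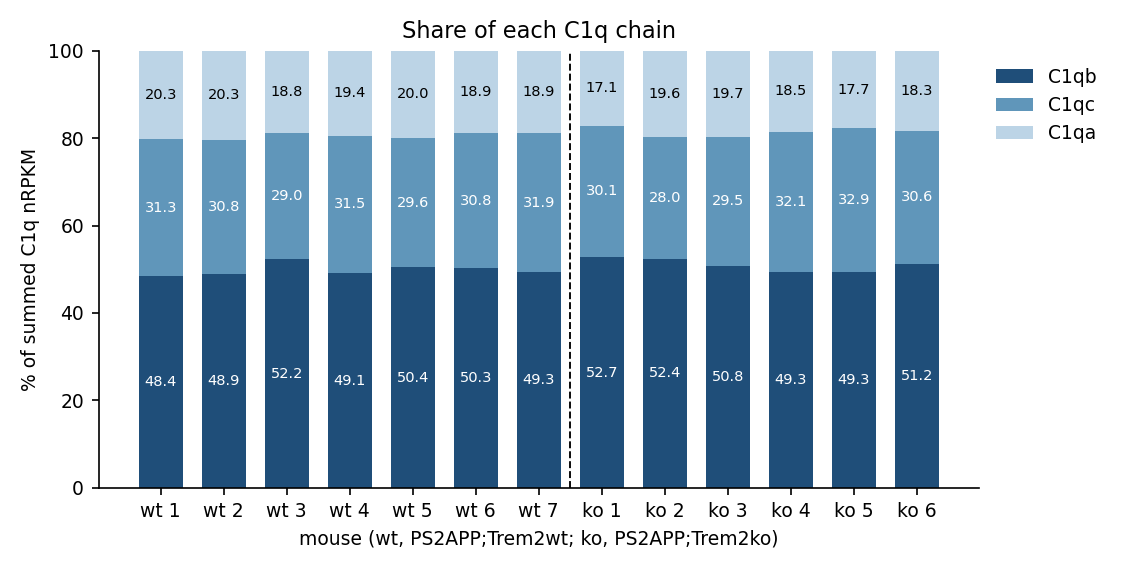
Percent of the summed C1qa, C1qb and C1qc nRPKM (bars stacked to 100%) taken by each chain in each mouse, with the value printed in each segment; the dashed line divides the 7 PS2APP;Trem2wt from the 6 PS2APP;Trem2ko mice. C1qb takes 48.4 to 52.7%, C1qc 27.96 to 32.9% and C1qa 17.1 to 20.3% in all 13 mice.

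The levels of the chains were correlated from mouse to mouse, though no pair passed the test after adjustment. Within PS2APP;Trem2wt mice, C1qa and C1qc gave Pearson r = 0.892 (exact permutation p = 0.00496) and Spearman rho = 0.893 (exact permutation p = 0.0123), and r was 0.733 without the 2 mice farthest from the median of C1qa. For the knockout mice, the same pair gave r = 0.9749 (exact permutation p = 0.00694) and rho = 0.829 (exact permutation p = 0.0583), and r = 0.800 without 2 mice. C1qa and C1qb gave r = 0.873 (exact permutation p = 0.00694) and rho = 0.714 (p = 0.0881) in PS2APP;Trem2wt mice and r = 0.952 (p = 0.00278) and rho = 0.943 (p = 0.0167) in PS2APP;Trem2ko mice, and without 2 mice r was 0.912 and 0.738. C1qb and C1qc gave r = 0.873 (exact permutation p = 0.0151) and rho = 0.571 (p = 0.2) in PS2APP;Trem2wt mice, a relation that rested on 2 mice, since r was 0.207 without them. In PS2APP;Trem2ko mice that pair gave r = 0.922 (exact permutation p = 0.0208) and rho = 0.943 (p = 0.0167), and r = 0.813 without 2 mice. Of the 72 relations computed, 36 pairs of members in each genotype, 13 had an unadjusted Pearson p of 0.05 or less and 0 remained after Benjamini-Hochberg adjustment (the adjusted p of these C1q pairs was between 0.1 and 0.156 for r). With only 720 orders of 6 mice, a single knockout relation could not pass this adjustment on its own, however strong.

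RefSeq promoter sequences, 250 bases before to 50 bases after the gene's start, were given for 6 of the 9 members, among them C1qb and C1qc. Both hold a match to GAGGAA, the core of the site bound by PU.1, the transcription factor that defines the myeloid lineage. These promoters of neighbouring genes are shown because both hold a match, 5′ to 3′ on the gene's strand, with the matches on either strand in capitals.
C1qb, chr4:136886151-136886450 (GRCm38.p6, minus strand): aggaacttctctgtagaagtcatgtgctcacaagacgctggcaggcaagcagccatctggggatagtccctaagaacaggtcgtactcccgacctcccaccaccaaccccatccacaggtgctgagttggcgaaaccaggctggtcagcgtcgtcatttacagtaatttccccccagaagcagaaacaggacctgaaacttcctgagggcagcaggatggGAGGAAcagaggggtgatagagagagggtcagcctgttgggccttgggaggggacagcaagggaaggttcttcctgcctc
C1qc, chr4:136892865-136893164 (GRCm38.p6, minus strand): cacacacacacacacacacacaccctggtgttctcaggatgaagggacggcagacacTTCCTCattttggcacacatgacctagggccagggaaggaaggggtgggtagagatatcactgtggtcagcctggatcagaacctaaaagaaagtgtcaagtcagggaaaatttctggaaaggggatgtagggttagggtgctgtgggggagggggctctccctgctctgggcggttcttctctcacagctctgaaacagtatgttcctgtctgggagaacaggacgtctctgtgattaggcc
The match lies 30 bases before the RefSeq start of C1qb and 193 bases before that of C1qc. These starts are not those of the GENCODE coordinates given above. In C1qc the GENCODE start (136893065) lies upstream of the RefSeq start, so the 2 distances depend on the start used. GAGGAA occurs on either strand in 28.3% of all 32851 promoters of this length. Cfp held 2 matches, and C3, C3ar1 and C5ar1 held none in this window. TTGCNNAA, a C/EBP motif found in 10.8% of promoters, occurred in C3 alone of the 6, and GAAANNGAA, an interferon-stimulated element found in 8.56%, in C5ar1 alone. A match is a string of letters and not a measured site.

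C4b, which is cut to the fragment that helps form the enzyme acting on C3, was at 6.84, 4.83, 13.9, 3.07, 7.04, 5.61 and 2.57 nRPKM in PS2APP;Trem2wt mice. The PS2APP;Trem2ko values were 5.65, 32.0, 29.2, 9.23, 3.20 and 6.10 nRPKM. Knockout mice 2 and 3 were above every PS2APP;Trem2wt mouse, PS2APP;Trem2wt mouse 3 was the highest of its group, and the other 4 knockout mice lay within the PS2APP;Trem2wt range. The log2 fold change was 1.18 ± 0.52 (SE; 95% interval 0.08 to 2.28), with an unadjusted p of 0.0368 and an adjusted p of 0.293 in edgeR, so the difference did not pass the test. It was 0.76 without knockout mouse 2 and 0.84 without knockout mouse 3. C4a was at 0 to 0.0536 nRPKM, and reads from words that both copies hold cannot be assigned to either.

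C4b varied more between mice of the same genotype than 99.7% of the 4291 genes of like level (SD of log2 CPM 1.09, against a median of 0.17). C3 and Cfp also varied more than 99.3% and 95.5% of the genes of their own levels. C2, the protease that joins C4b in that enzyme, was described after its values were seen: it was at 0.832, 0.893 and 0.894 nRPKM in PS2APP;Trem2wt mouse 3 and knockout mice 2 and 3, and at 0.0475 to 0.315 nRPKM in the other 10 mice. These C2 values rest on 13 to 239 counts per mouse. Of the 50-base words of C2, 38.7% occur in the readthrough gene Gm20547, so its unique counts are uncertain. The log2 fold change of C2 was 0.67 (95% interval -0.61 to 1.95; edgeR adjusted p = 0.657). The summed level of 6 lymphocyte markers (among them Cd3e, Cd3d and Nkg7) was 4.70, 2.76, 2.74 and 2.22 nRPKM in the 4 mice with the most C4b, in the same order, and between 0.219 and 1.58 nRPKM in the other 9. Most of that sum was Nkg7, a gene of cytotoxic lymphocytes, at 3.37 nRPKM in knockout mouse 2. Nkg7 rested on 11 to 268 counts per mouse. The lymphocyte list gave 0 calls between the genotypes among the 2 of its 6 genes tested, and its part in the C4b values was not tested. In falling order of C4b, the monocyte and neutrophil markers of the same 4 mice ranked 8, 5, 4 and 7 of 13. Their border macrophage markers ranked 12, 2, 9 and 7. By sex, C4b was at 2.57 to 4.83 nRPKM in 3 males and 3.07 to 32.0 nRPKM in 10 females (log2 difference, male minus female, -1.42 ± 0.62 SE; edgeR unadjusted p = 0.0363, adjusted p = 0.713). With sex in the model the log2 fold change between the genotypes was 0.92 (edgeR unadjusted p = 0.0753), and in females alone it was 1.17 (unadjusted p = 0.0455, adjusted 0.328).

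C3, the central component on which all pathways converge, was at 2.14, 6.21, 7.54, 0.825, 2.85, 1.75 and 0.905 nRPKM in PS2APP;Trem2wt mice. Knockout mice 1 to 6 gave 1.18, 2.28, 2.55, 1.27, 0.597 and 0.554 nRPKM. PS2APP;Trem2wt mice 2 and 3 stood above all others, knockout mice 5 and 6 were below every PS2APP;Trem2wt mouse, and the remaining mice of both groups overlapped. These values rest on 162 to 3995 counts per mouse. The log2 fold change was -1.18 ± 0.53 (SE; 95% interval -2.30 to -0.06), with an unadjusted p of 0.0399 and an adjusted p of 0.304 in edgeR, and it was -0.80 without PS2APP;Trem2wt mouse 3.

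C3 is a transcript that monocytes and neutrophils also carry. The 10 monocyte and neutrophil markers summed to 57.5 and 267 nRPKM in PS2APP;Trem2wt mice 3 and 2, the mice with the most C3, and to 3.19 nRPKM in knockout mouse 6, the mouse with the least. In between the orders differed: PS2APP;Trem2wt mouse 6, second in the marker sum with 104 nRPKM, had 1.75 nRPKM of C3. Of the 8 markers tested 0 were called, 6 had a negative log2 fold change, S100a9 (-1.60) and Camp (-1.61) had an unadjusted edgeR p under 0.05 (0.0411 and 0.0481), and Ccr2 and Plac8 had positive ones (0.38 and 0.97). The part of these cells in the C3 values was not tested. In sorted cells measured in bulk, fewer cells of a type and less RNA per cell cannot be told apart.

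The log2 fold changes of C3 and C4b had opposite signs, while within each genotype the levels of both tended to be high in the same mice. Their Pearson r was 0.791 (exact permutation p = 0.0327) in PS2APP;Trem2wt mice, with rho = 0.750 (p = 0.0663), and 0.914 (exact permutation p = 0.0389) in PS2APP;Trem2ko mice, with rho = 0.771 (p = 0.103). Without the 2 mice farthest from the median of C3, r was 0.963 and 0.960. The adjusted p of r was 0.214 and 0.22. These coefficients describe 7 and 6 mice.

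**Figure D3:**
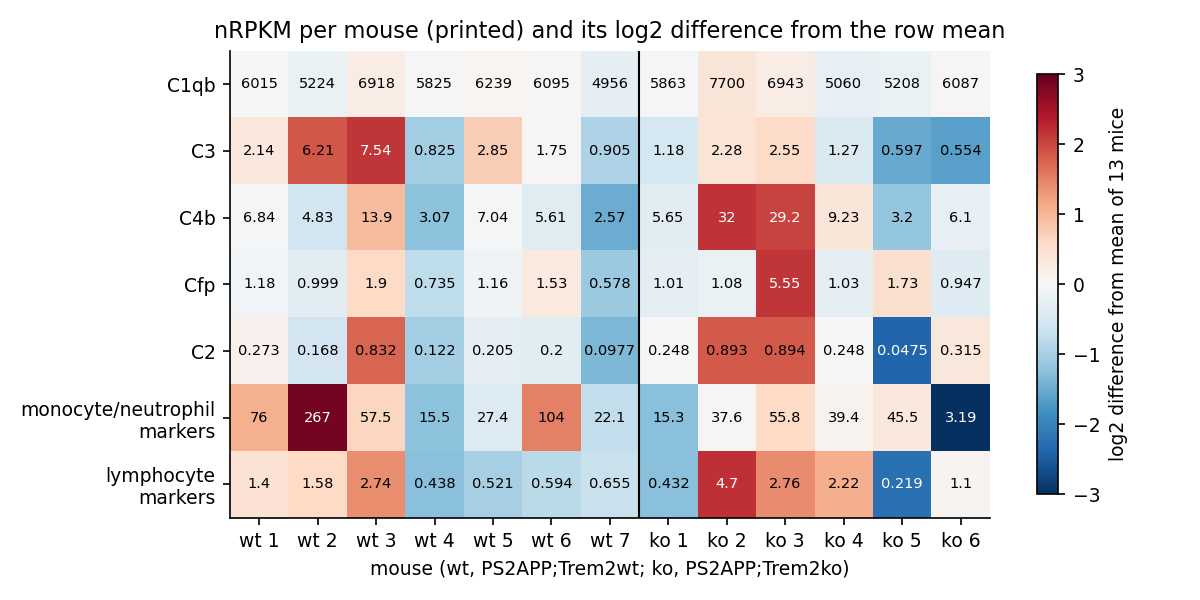
nRPKM of C1qb, C3, C4b, Cfp and C2 and the summed nRPKM of 2 marker lists in each mouse (printed), coloured by the log2 difference from the mean of the 13 mice in that row (colour scale ends at 3 in each direction); the vertical line divides the genotypes. PS2APP;Trem2wt mouse 3 and knockout mice 2 and 3 are high in C4b, C2 and the lymphocyte markers, and the monocyte and neutrophil markers peak at 267 nRPKM in PS2APP;Trem2wt mouse 2.

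C3ar1 encodes the receptor for the small C3 fragment C3a, and lies on chromosome 6 at 122847138 to 122856161. It was at 90.6, 92.6, 145, 116, 122, 133 and 110 nRPKM in PS2APP;Trem2wt mice. The knockout values were 111, 106, 124, 113, 142 and 113 nRPKM, every one within the PS2APP;Trem2wt range. This gave a log2 fold change of 0.03 ± 0.11 (SE; 95% interval -0.20 to 0.26; edgeR adjusted p = 0.941).

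C5ar1 encodes the main receptor for C5a, which draws and activates myeloid cells, and lies on chromosome 7 at 16246743 to 16259540. It was at 84.1, 63.3, 79.8, 79.3, 81.2, 92.7 and 81.9 nRPKM in PS2APP;Trem2wt mice. Knockout mice 1 to 6 gave 88.0, 90.4, 84.3, 62.4, 91.3 and 98.6 nRPKM, with mouse 6 above and mouse 4 below every PS2APP;Trem2wt mouse. Its log2 fold change was 0.09 ± 0.10 (SE; 95% interval -0.12 to 0.31; edgeR adjusted p = 0.723). For both receptors the interval leaves out a change of more than 1.24-fold upward and of more than a fall to 0.868 of the PS2APP;Trem2wt level.

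Cfp, properdin, an X-linked gene at 20925454 to 20931555, was at 1.18, 0.999, 1.90, 0.735, 1.16, 1.53 and 0.578 nRPKM in PS2APP;Trem2wt mice. In PS2APP;Trem2ko mice it was at 1.01, 1.08, 5.55, 1.03, 1.73 and 0.947 nRPKM. Knockout mouse 3 was 5.55 and far from the rest, and the other 5 lay within the PS2APP;Trem2wt range. This gave a log2 fold change of 0.70 ± 0.42 (SE; 95% interval -0.19 to 1.60; edgeR adjusted p = 0.468), and it was 0.01 without knockout mouse 3. That mouse also had the highest Ccr2, at 5.13 nRPKM against 0.523 to 2.10 nRPKM in the other 12, but the whole list of monocyte and neutrophil markers summed to 55.8 nRPKM in it, only the fifth highest of the 13 mice. Its lymphocyte markers summed to 2.76 nRPKM, the second highest. Its border macrophage markers summed to 83.5 nRPKM, second only to the 84.0 nRPKM of knockout mouse 1, in which Cfp was 1.01 nRPKM. The part of these cell types was not tested.

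Cfb, factor B, was at 0.0190 to 0.134 nRPKM in PS2APP;Trem2wt mice (2 to 38 counts) and 0.0304 to 0.109 nRPKM in PS2APP;Trem2ko mice (5 to 27 counts). The limit set for detection was 3 counts. In the fit without a filter the log2 fold change was -0.21 (95% interval -1.35 to 0.93; edgeR adjusted p = 0.894), an interval that leaves room for changes of up to 1.90-fold upward and down to 0.393 of the PS2APP;Trem2wt level. Cfb overlaps the readthrough gene Gm20547 on the same strand over 79.5% of its exon bases, so its unique counts are uncertain.

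The genotype comparison called 0 of the 8 members tested at an adjusted p of 0.05 or less, and 2 of 8, C3 lower and C4b higher, had an unadjusted p of 0.05 or less (edgeR). Over all 17086 genes 2.04% were called (262 lower and 86 higher in PS2APP;Trem2ko) and 14.8% had an unadjusted p of 0.05 or less. Voom with limma and DESeq2 also called 0 members. The unadjusted p of C3 was 0.0798 in voom with limma and 0.0470 in DESeq2. That of C4b was 0.167 in voom with limma and 0.0504 in DESeq2. No member's normalised counts were separated between the genotypes, against 1.64% of all genes. The median log2 fold change was 0.04 for the 8 members and 0.00 over all genes.

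By sex, the 8 members gave 0 calls in edgeR (0.0234% of all genes called), and 3 of them, C1qa, C1qb and C4b, had a negative male minus female difference with an unadjusted p of 0.05 or less, against 6.95% of all genes. C1qb was at 5129 ± 150.4 nRPKM (SD, n = 3) in males and 6275 ± 736 nRPKM (SD, n = 10) in females, a log2 difference of -0.28 ± 0.10 SE. C1qa was at 1982 ± 168 nRPKM in males and 2364 ± 317 nRPKM in females (log2 difference -0.26 ± 0.12 SE). The adjusted p of all 8 was 0.713 or more in edgeR.

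The rest of the pathway was described from a list of 46 further complement genes, of which 24 passed the filter. Of these, 1 was called lower and 0 higher, the median log2 fold change was 0.02, and 1 of 24 stands against 2.04% of all genes called. The called gene was Itgax, the alpha chain of complement receptor 4 and a known marker of plaque-associated microglia. It was at 18.1 to 51.2 nRPKM (median 26.1) in PS2APP;Trem2wt mice and at 4.73 to 7.49 nRPKM (median 6.002) in PS2APP;Trem2ko mice, with no overlap, and its log2 fold change was -2.24 ± 0.21 (SE; edgeR adjusted p = 2.42e-05). Its partner chain Itgb2, at 244 ± 40.5 nRPKM (SD, n = 7) in PS2APP;Trem2wt mice and 234 ± 12.2 nRPKM (SD, n = 6) in PS2APP;Trem2ko mice, gave -0.06. Itgam, the alpha chain of complement receptor 3 and the CD11b of the sort, was at 64.1 ± 8.98 and 60.1 ± 4.55 nRPKM and gave -0.09 (edgeR adjusted p = 0.684).

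Among other receptors and C1q-binding proteins, calreticulin (Calr) was at 274 ± 15.6 nRPKM (SD, n = 7) and 234 ± 28.8 nRPKM (SD, n = 6), a log2 fold change of -0.23 (edgeR unadjusted p = 0.00955, adjusted 0.162). Lrp1, an endocytic receptor, was at 50.4 ± 9.59 and 51.2 ± 5.46 nRPKM, C1qbp, which binds C1q, at 32.9 ± 3.23 and 32.7 ± 1.67 nRPKM, and C5ar2, the second C5a receptor, at 12.8 ± 2.41 and 12.5 ± 1.84 nRPKM. The log2 fold changes of the last 3 were between -0.04 and 0.02.

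Among the regulators, which restrain the cascade on host cells, Cr1l, a membrane protein, was at 18.9 ± 1.61 nRPKM (SD, n = 7) in PS2APP;Trem2wt mice and 19.4 ± 1.58 nRPKM (SD, n = 6) in PS2APP;Trem2ko mice, and Clu, clusterin, an inhibitor of the terminal complex, at 11.3 ± 3.97 and 11.4 ± 2.12 nRPKM. Their log2 fold changes were 0.03 and 0.02. Of the 15 regulators listed, 10 were tested and 0 called, and Cd46 had an unadjusted p of 0.024 (log2 fold change 0.66, edgeR adjusted p = 0.242) at 0.187 and 0.300 nRPKM.

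Of the initiating proteases, Masp1, of the lectin pathway, was at 4.96 ± 1.02 nRPKM (SD, n = 7) and 3.83 ± 0.269 nRPKM (SD, n = 6), a log2 fold change of -0.38 (edgeR unadjusted p = 0.0071, adjusted 0.142), while the C1s genes C1s1 and C1s2 were at 0.122 nRPKM or less in every mouse. C1ra, of the classical pathway, was at 0.34 to 1.31 nRPKM in PS2APP;Trem2wt mice and 0.64 to 1.79 nRPKM in PS2APP;Trem2ko mice. Its log2 fold change was 0.18 (edgeR adjusted p = 0.827). The terminal components were at 0.0396 nRPKM or less, 3 of them (C7, C8a and C8b) listed at 0 in all mice, apart from C8g at 2.04 ± 0.298 and 2.39 ± 0.366 nRPKM, which gave 0.22 (edgeR adjusted p = 0.514). Factor D (Cfd) was also listed at 0 in all mice.

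**Figure D4:**
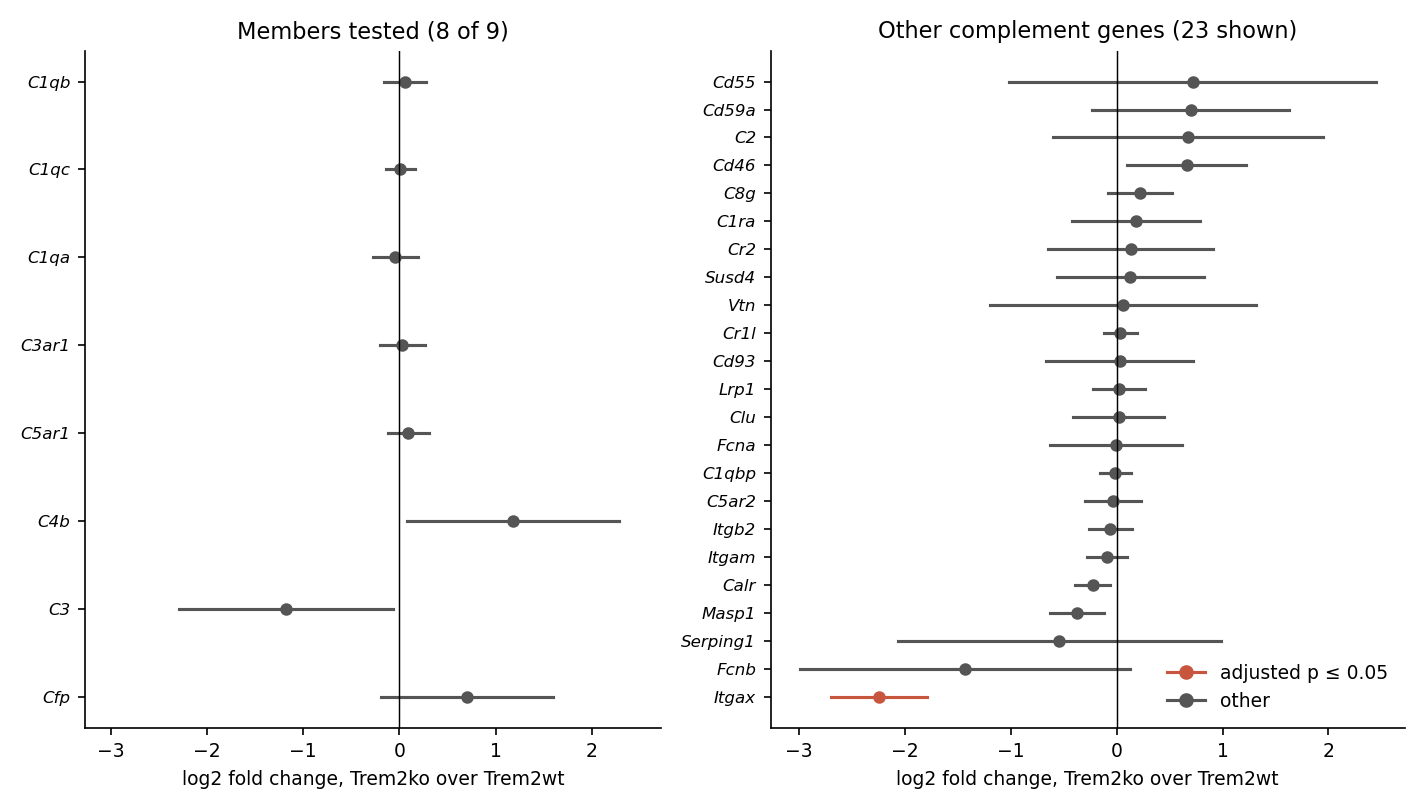
Log2 fold change, PS2APP;Trem2ko over PS2APP;Trem2wt (points), with its 95% interval (lines) from edgeR for the 8 members tested (left) and 23 other complement genes tested (right), with genes of adjusted p of 0.05 or less in red. Itgax at -2.24 is the only red point; C4b (1.18) and C3 (-1.18) have intervals that reach to 0.08 and -0.06.

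For each member tested, the 3 genes whose log2 CPM was most like it after subtraction of each genotype's mean were drawn from 11015 genes, over 13 mice. For C1qa these were Ifi35, Bst2 and Psme2 (r = 0.96, 0.96 and 0.95), for C1qb Xaf1, Bst2 and Bcap31 (r = 0.96, 0.96 and 0.94), and for C1qc Bst2, C1qa and Ube2l6 (r = 0.94, 0.93 and 0.93). Bst2 was on all 3 lists. For C4b they were the major histocompatibility genes H2-Q6, H2-Q7 and H2-K1 (r = 0.99, 0.98 and 0.97), members of a multigene family whose shared reads were not measured here. H2-Q6 was at 39.0, 78.8 and 57.6 nRPKM in PS2APP;Trem2wt mouse 3 and knockout mice 2 and 3 and at 5.18 to 20.98 nRPKM in the others. For C3 they were Ly6c2, Ly6i and Cp (r = 0.95, 0.95 and 0.92), and Ly6c2 is one of the monocyte and neutrophil markers counted above, at 5.38 and 3.47 nRPKM in PS2APP;Trem2wt mice 2 and 3. For C3ar1 they were Stt3a, Fam129a and Adam9 (r = 0.98, 0.94 and 0.92), for C5ar1 Jdp2, Slc35b2 and Slc25a20 (r = 0.87, 0.86 and 0.82) and for Cfp Mgl2, Emilin2 and Micu2 (r = 0.93, 0.91 and 0.89). These are the highest of many coefficients over 13 mice that differ in library depth, and none of the 21 other genes named here was called between the genotypes.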

How the data were processed

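The authors deposited raw counts of reads per gene and, beside them, nRPKM (RPKM scaled by library size factors) for every mouse. Per the paper's methods and the labels, adapter, low-quality and rRNA sequences were discarded and single-end reads were aligned with GSNAP to GRCm38. The strand setting and annotation of the counting are not given in the sources used here. Gene names and coordinates are those of GENCODE M21, in which 52403 of 52636 identifiers had a symbol.

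Counts were tested with edgeR 4.0.16 in R 4.3.3 (filterByExpr by genotype, TMM, glmQLFit and glmQLFTest, no covariate). The Benjamini-Hochberg adjustment ran over 17086 genes, and a call needed an adjusted p of 0.05 or less. Standard errors are the log2 fold change divided by the square root of F. Correlations between members used log2(nRPKM + 0.1), exact permutation over mice, and Benjamini-Hochberg over 72 relations. Alternatives tried were voom with limma 3.58.1, DESeq2 1.42.0, RLE scaling, no expression filter, a filter of 10 counts in 6 mice, a term for sex, the females alone, limma on log2 of nRPKM with 0.1 or 1 added, and leaving out each mouse. Tests were checked on simulated counts with known changes in 200 genes. These changes were larger than the log2 fold changes of the members, so power at the members' sizes was not examined. Total counts per mouse were between 26120961 and 120569609, and the 3-count limit covers counting error only. Values per mouse were computed in Python 3.11.15 (scipy 1.17.1, numpy 2.4.6, pandas 2.3.3).

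The members and lists were chosen with earlier results of these data known. Named besides the members were the other complement genes called, the 12 with the highest mean nRPKM, C4a, and the 3 genes most like each member. C2, Cd46, C1ra, C1s1, C1s2, C7, C8a, C8b, Cfd, Camp, S100a8, S100a9, Ngp, Retnlg, Ccr2, Plac8, Nkg7 and Cx3cr1 were named after their values were seen. The values of 1 gene that the rule would name are not reported here. Per the paper's methods a PS2APP;Trem2wt and a PS2APP;Trem2ko mouse generally went through perfusion, dissociation and sorting side by side. The labels do not say which mice formed such a pair, so every fit is unpaired, and replicate numbers only follow the order of the samples.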

Additional observations from a re-analysis of the deposited data

Results flagged for a closer look

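In 4 of 50 groups of mice examined (the nRPKM of the members and of the pathway genes chosen by the naming rule, and the shares of the C1q chains, in each genotype), the highest mouse stood apart from the others by Dixon's test, and chance alone marks about 1 in 20 groups. C4b was 13.9 nRPKM in PS2APP;Trem2wt mouse 3, against 2.57 to 7.04 nRPKM in the other 6. Cfp was 5.55 nRPKM in PS2APP;Trem2ko mouse 3, against 0.947 to 1.73 nRPKM in the other 5. Cfb was 0.109 nRPKM in PS2APP;Trem2ko mouse 2, at 27 counts or fewer in every mouse of that group. Itgax was 51.2 nRPKM in PS2APP;Trem2wt mouse 3, the mouse with the most C3 and C4b of its group.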

How the results depend on the processing

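No paired analysis was possible because the labels do not say which mice of the 2 genotypes were processed together, and all tests leave that pairing out. Under all 22 alternatives 0 members were called in either direction, and C3 (-1.43 to -0.63 on the log2 scale), C4b (0.76 to 1.51), C5ar1 (0.02 to 0.17) and Cfp (0.01 to 0.87) kept their direction. The log2 fold changes near 0 changed sign under some: C1qc was -0.01 with sex as a covariate and -0.04 in females only, and C3ar1 was -0.10 in females only. Leaving out each mouse gave C1qa -0.13 to 0.00, C1qb -0.02 to 0.11, C1qc -0.03 to 0.04 and C3ar1 -0.03 to 0.09. Leaving out each mouse moved the difference in C1qa share between -1.24 and -0.73 percentage points, with unadjusted exact permutation p under 0.05 without PS2APP;Trem2wt mouse 3 (0.0498) or knockout mouse 2 (0.0303) or 3 (0.0278). Without any other mouse that p was above 0.05, up to 0.131 without knockout mouse 1. The difference in C1qb share was 0.812 to 1.58 points. Its exact permutation p was under 0.05 only without PS2APP;Trem2wt mouse 3 (0.0455) and was up to 0.313 without knockout mouse 1. The difference in C1qc share was -0.65 to 0.348 points. Of the other complement genes, 1 to 2 were called lower and 0 to 1 higher: Calr without knockout mouse 2 and Cd46 without PS2APP;Trem2wt mouse 7 joined Itgax. DESeq2 called 862 genes over the whole table, voom with limma 436 and the main test 348. Counts below about 40 per mouse limit what can be said of Cfb.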
